A study of Mus musculus with 3 samples.

Results

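The genes described here encode protein subunits of the mitochondrial ribosome. They were taken by symbol, as every listed gene whose name starts with Mrpl or Mrps followed by a digit, with each gene identifier counted once. This gave 77 of 11419 listed genes, 48 named for the large subunit (Mrpl) and 29 for the small subunit (Mrps). Messenger RNA had been sequenced from 3 libraries, replicates 1, 2 and 3, of a population that was sorted out of the marrow of tibiae and femurs of mice of the inbred strain C57BL/6. The sorted cells were Cd11b+F4/80+CD169+CX3CR1neg, and the study's design text sets the word macrophages in quotation marks. All libraries belonged to this 1 group, for which the labels gave no altered allele, no treatment, no age and no control population. The labels did not say how mice map to libraries.

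Mitochondria keep a small genome of their own, and the proteins it encodes are subunits of the respiratory chain and of ATP synthase. They are made on a dedicated ribosome inside the organelle. Its ribosomal RNAs come from the mitochondrial genome, whereas its proteins are encoded in the nucleus, made in the cytosol and imported. Some of these proteins descend from those of bacterial ribosomes and others are found only in mitochondrial ribosomes. The large subunit joins amino acids and releases the growing chain towards the inner membrane, and the small subunit reads the messenger RNA.

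The files gave each gene's level as CPM, its reads in every 1000000 assigned to listed genes. The libraries held 5150020, 40149274 and 37604930 assigned reads, so 10 CPM stood for 51.5, 401 and 376 reads in replicates 1, 2 and 3. The RNA was checked against markers of the labelled cell type. The 10 macrophage markers summed to 253, 234 and 259 CPM. By limma, 5 of them (Vcam1, Csf1r, Cd68, Adgre1 and C1qa) lay above 10 CPM, beside 58.8% of all tested genes. Below it lay 3 (Siglec1, which encodes CD169, Mertk and Fcgr1), beside 28.3% of all tested genes, and 2 (C1qb and C1qc) were called neither way. The 10 neutrophil markers held 21.8%, 21.8% and 18.1% of the reads. Siglec1 had 0.388, 3.66 and 4.57 CPM, of which the value in replicate 1 is 2 reads. The population is therefore called by its sort gate. Replicate 1, the shallowest library, also stood apart in basophil genes such as Mcpt8, which had 259, 35.4 and 37.4 CPM. In such bulk RNA, fewer cells of a type and less RNA per cell cannot be told apart.

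All 77 genes were protein-coding in the annotation and all had reads in every library. They lay on 17 chromosomes, with 11 of them on chromosome 11, and their proteins ranged from 65 to 442 residues with a median of 196. A further gene of this kind, Mrpl53 on chromosome 6, was not analysed here. Exons of 32 of the 77 overlap those of another gene, and 10 have a near-identical transcript elsewhere or in an overlapping gene (Mrpl21, Mrpl22, Mrpl23, Mrpl27, Mrpl42, Mrps10, Mrps18b, Mrps21, Mrps25 and Mrps34), so their counts are uncertain. The names are not in every case a guide to the place of the protein: structures of the mammalian mitochondrial ribosome put Mrps30 and Mrps18a in the large subunit. Mrps36 is now known as Kgd4, a subunit of the 2-oxoglutarate dehydrogenase complex of the citric acid cycle.

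The mitochondrial ribosomal protein genes held a small share of the reads in each library. Together they took 0.173%, 0.149% and 0.130% of the assigned reads in replicates 1, 2 and 3. The Mrpl genes summed to 1172, 1011 and 878 CPM, a share of 0.102% ± 0.0147 (SD, n = 3). The Mrps genes summed to 554, 478 and 422 CPM, a share of 0.0484% ± 0.0066 (SD, n = 3). The order was the same for both subunits, highest in replicate 1 and lowest in replicate 3. For scale, 77 nuclear genes of the respiratory chain and of ATP synthase took 0.689%, 0.634% and 0.523% of the reads. They were taken by symbol and are called nuclear respiratory chain genes here. The 79 protein genes of the cytosolic ribosome took 2.02%, 1.65% and 1.34%.

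Levels were compared between genes per length, as CPM per kb of merged exons. The median over the mitochondrial ribosomal protein genes was 6.23 CPM per kb, with quartiles of 2.59 and 12.1, against a median of 4.34 and quartiles of 1.21 and 13.1 for all other listed genes. The Mrpl genes had a median of 7.67 CPM per kb and the Mrps genes 4.79. The medians in single libraries were 9.18, 7.52 and 6.12 CPM per kb for Mrpl genes, against 5.96, 4.35 and 4.22 for Mrps genes, so the Mrpl median was the higher in each of the 3 libraries. Both medians lay under that of nuclear respiratory chain genes, at 38.2 CPM per kb, and that of cytosolic ribosomal protein genes, at 99.3. The 2 ribosomal RNAs of the mitochondrial genome, mt-Rnr1 and mt-Rnr2, stood at 411 ± 149 and 730 ± 194 CPM (SD, n = 3). Mitochondrial ribosomal RNAs carry short poly(A) tails, so their amount relative to the protein genes is not read from these libraries.

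**Figure D1:**
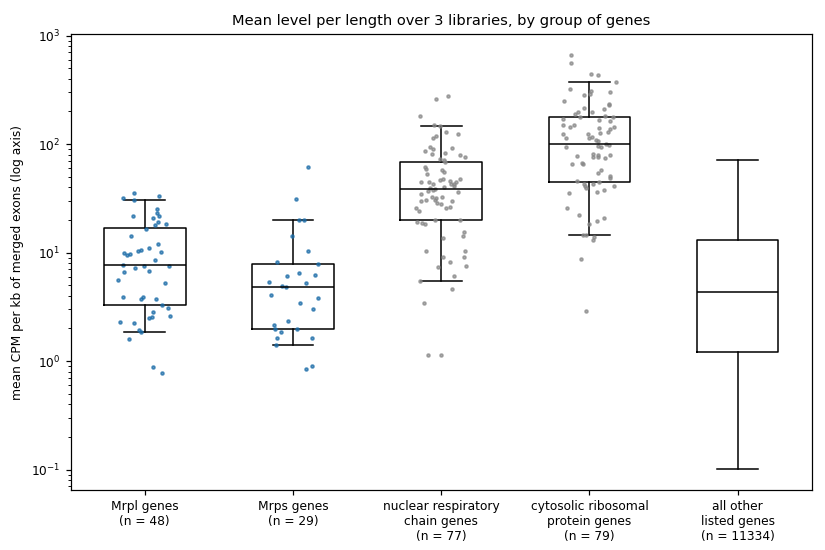
Mean CPM per kb of merged exons over the 3 libraries (log axis) for Mrpl genes, Mrps genes, nuclear respiratory chain genes (with those of ATP synthase), cytosolic ribosomal protein genes and all other listed genes with a length. Boxes span the quartiles with the median as a line, whiskers run from the 5th to the 95th percentile, and points are single genes. The Mrpl and Mrps medians, 7.67 and 4.79, sit just above that of all other listed genes, 4.34, and under those of the cytosolic ribosomal protein genes, 99.3, and the nuclear respiratory chain genes, 38.2.

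Each gene was also compared with a fixed level of 10 CPM. By limma on log2(CPM + 1) with Benjamini-Hochberg adjustment over all 11123 tested genes, 48 of the 77 genes lay above 10 CPM, 13 lay below and 16 were called neither way. Of all tested genes 58.8% lay above and 28.3% below, beside 62.3% and 16.9% of the mitochondrial ribosomal protein genes, so the share above was near the background. The 77 means ran between 1.39 and 54.3 CPM with a median of 18.5, while the other listed genes had a median of 19.7. None of the 77 exceeded 100 CPM, which 14.9% of the other listed genes did. These calls and CPM values are not per length. The median length of merged exons was 2533 bases for the 77 genes and 4437 for the other listed genes. By name, 33 of 48 Mrpl genes were above, 4 below and 11 neither, and 15 of 29 Mrps genes were above, 9 below and 5 neither. With Mrps30 and Mrps18a counted in the large subunit and Mrps36 left out, the small subunit had 13 of 26 above and 8 below. The difference between the subunits was not tested. The number of calls rested in part on replicate 2: without it 35 of the 77 genes lay above and 6 below, and 20 calls were lost. Of all tested genes 52.9% then lay above and 21.8% below, so the shares, 45.5% and 7.79%, were both under the background. They were lost for Mrpl2, Mrpl9, Mrpl37, Mrpl39, Mrpl42, Mrpl49, Mrpl54, Mrps7, Mrps14, Mrps24, Mrps30, Mrps34 and Mrps35 above the level and for Mrpl38, Mrpl52, Mrps2, Mrps18b, Mrps22, Mrps28 and Mrps31 below it. Without replicate 1, calls were lost for Mrpl37, Mrpl54, Mrps18b, Mrps18c and Mrps22 and gained for Mrpl16 and Mrps27. Without replicate 3, those of Mrps18c and Mrps30 were lost.

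The plot of each gene by library gives the genes in per-length order. They were sorted by the mean of the same libraries, so neighbours are close by construction and their overlap is not read as a result. Among the 76 pairs of neighbours by merged exons, 1 pair did not overlap between libraries. This was the pair at the top, Mrps21 above Mrpl34. The highest mean was 80.0 times the lowest. The order depends on the length used. Merged exons count every annotated exon of a gene, and for some genes they are far longer than the principal transcript, the main isoform in the annotation. Per kb of principal transcript, Mrpl33 was highest at 102 ± 18.3 CPM per kb, against 6.66 ± 1.19 by merged exons, where it stands at place 37. By that length 7 of the 8 highest and 3 of the 5 lowest Mrpl genes, and 6 of the 8 highest and 2 of the 5 lowest Mrps genes, were the same genes as by merged exons. The values that follow are per kb of merged exons unless the principal transcript is named.

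**Figure D2:**
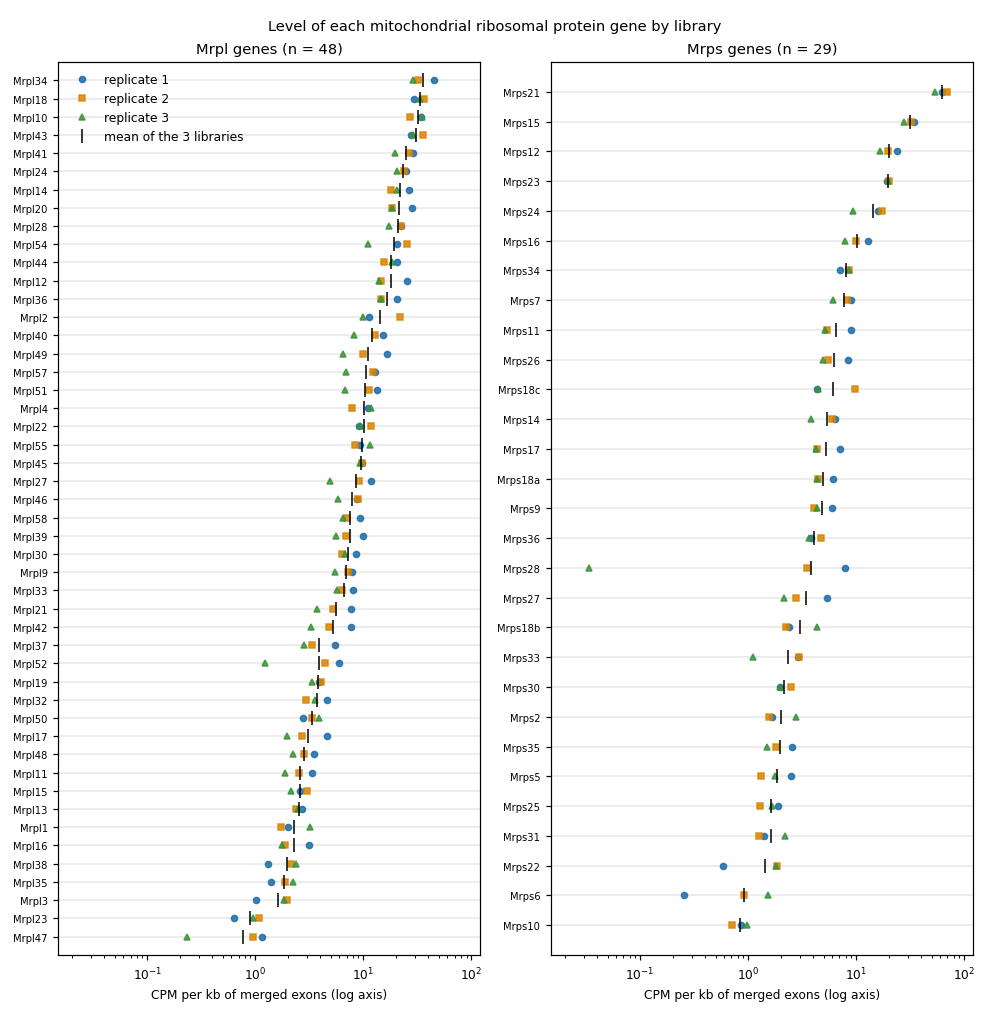
CPM per kb of merged exons (log axis) of every Mrpl gene (left) and Mrps gene (right), sorted by mean, with a symbol for each library and a tick for the mean of the 3 libraries. Mrps21 at 61.9 and Mrpl34 at 35.3 lead the panels, Mrpl47 at 0.773 and Mrps10 at 0.851 close them, and Mrps28, Mrpl47 and Mrps6 each have a library far to the left.

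Among the Mrpl genes, Mrpl34, whose protein descends from a small bacterial ribosomal protein, was highest per kb of merged exons. It had 27.6, 19.4 and 17.4 CPM in replicates 1, 2 and 3, or 35.3 ± 8.92 CPM per kb (SD, n = 3). Next came Mrpl18 (33.1 ± 3.66 CPM per kb), Mrpl10 (31.8 ± 4.05) and Mrpl43 (30.7 ± 4.24), whose ranges over libraries overlap one another. Mrpl41, Mrpl24, Mrpl14 and Mrpl20 followed with means of 25.02, 23.0, 21.8 and 21.6 CPM per kb. By the principal transcript Mrpl33, Mrpl20 (47.0 CPM per kb), Mrpl24 (38.7) and Mrpl18 (37.9) had higher means than Mrpl34, which kept 35.3. Among these 8 genes, exons of Mrpl43 overlap those of other genes over 33.4% of their length and exons of Mrpl24 over 26.3%. The strand setting of the counting is not given in the sources used here, so reads of such partners cannot be told apart.

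The 5 lowest Mrpl genes per kb of merged exons were Mrpl47, Mrpl23, Mrpl3, Mrpl35 and Mrpl38. Mrpl47 had 5.05, 4.16 and 1.04 CPM, which is 26, 167 and 39 reads, and a mean of 0.773 ± 0.477 CPM per kb. Mrpl23 had 3.11, 5.31 and 4.6005 CPM and a mean of 0.888 ± 0.230 CPM per kb. By its principal transcript Mrpl23 had 6.27 ± 1.62 CPM per kb and was not among the 5 lowest, and a near-identical copy, Mrpl23-ps1, is annotated, so its level is uncertain. Mrpl3, whose bacterial relative lies near the peptidyl transferase centre, had 6.80, 13.0 and 12.3 CPM and 1.61 ± 0.509 CPM per kb. Mrpl35 and Mrpl38 had means of 1.84 and 1.94 CPM per kb. Mrpl47, Mrpl23 and Mrpl38 lay below 10 CPM, and Mrpl3 and Mrpl35 were called neither way.

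Mrps21, a small-subunit protein with a bacterial counterpart, had the highest level per kb of merged exons of all 77 genes. It had 46.4, 50.9 and 39.9 CPM, or 61.9 ± 7.49 CPM per kb (SD, n = 3), and its estimate above 10 CPM was 2.08 ± 0.15 on the log2(CPM + 1) scale (SE, adjusted p = 7.6e-12 by limma). A near-identical copy, Gm6181, exists in the annotation, so its count is uncertain. By the principal transcript Mrps21 had 93.7 CPM per kb, behind Mrpl33. Mrps15 followed with 58.3, 54.6 and 47.0 CPM and 31.5 ± 3.38 CPM per kb. Mrps12, a protein of the decoding site, had 24.9, 20.6 and 17.4 CPM and 20.1 ± 3.61 CPM per kb. Mrps23 (19.9 CPM per kb), Mrps24 (14.3), Mrps16 (10.3), Mrps34 (8.12) and Mrps7 (7.78) completed the 8 highest, and all 8 lay above 10 CPM. Exons of Mrps34 overlap those of other genes over 77.8% of their length, so its level is uncertain.

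The lowest Mrps genes per kb of merged exons were Mrps10, Mrps6, Mrps22, Mrps31 and Mrps25. Mrps10 had 6.99, 5.68 and 7.95 CPM and 0.851 ± 0.141 CPM per kb, and was called neither way (adjusted p = 0.0581 by limma). By its principal transcript it had 6.75 ± 1.12 CPM per kb, close to the Mrps median of 6.70 by that length, and a near-identical copy, AC154457.3, is annotated, so its low place is uncertain. Mrps6 had 0.388, 1.42 and 2.37 CPM, of which the value in replicate 1 is 2 reads, under the 3 reads that a count of 0 allows. Its mean was 0.908 ± 0.645 CPM per kb. Mrps22 and Mrps31, both proteins found only in mitochondrial ribosomes, had 1.42 ± 0.727 and 1.62 ± 0.507 CPM per kb, or 4.74 and 3.52 by the principal transcript, and lay below 10 CPM. Mrps25 had 1.62 ± 0.299 CPM per kb and was called neither way, and its exons overlap those of other genes over 69.8% of their length.

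Of the 13 genes below 10 CPM, 9 were named for the small subunit (Mrps2, Mrps6, Mrps18b, Mrps18c, Mrps22, Mrps28, Mrps31, Mrps33 and Mrps36) and 4 for the large subunit (Mrpl23, Mrpl38, Mrpl47 and Mrpl52). Mrpl52 had 6.602, 4.93 and 1.36 CPM and an estimate of -1.22 ± 0.31 (SE, adjusted p = 0.00105 by limma). Mrps33 had 4.85, 4.96 and 1.83 CPM, with replicate 3 apart from the other libraries. Mrps2 had 4.85, 4.58 and 8.06 CPM, with replicate 3 the highest. Mrps36, the subunit of the dehydrogenase complex, had 4.85, 5.98 and 4.68 CPM.

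Mrps28 had 6.21, 2.76 and 0.0266 CPM, which is 32, 111 and 1 reads. The read in replicate 3 lies under the floor of 3 reads, so its libraries differ more than those of any other of the 77 genes and no fold is given. Such a pattern was not limited to this gene. In all, 27 of 11419 listed genes had a library under 0.1 CPM and at least 2 CPM in both other libraries. The low library was replicate 1 for 16 of them, replicate 2 for 1 and replicate 3 for 10. These counts are not alike: a single read is 0.194 CPM in replicate 1, so a value under 0.1 CPM there means no read. In replicates 2 and 3 a read is 0.0249 and 0.0266 CPM.

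The 16 genes called neither way were Mrpl1, Mrpl3, Mrpl11, Mrpl16, Mrpl21, Mrpl22, Mrpl27, Mrpl35, Mrpl46, Mrpl50, Mrpl55, Mrps5, Mrps10, Mrps11, Mrps25 and Mrps27. Their means lay between 6.87 CPM for Mrps10 and 14.2 CPM for Mrps11. Mrps11 came near the threshold from above (adjusted p = 0.0662 by limma) and passed it in edgeR on recovered reads (adjusted p = 0.0382).

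Genes were then grouped by the place of their protein in the ribosome. The stalk of the large subunit, which recruits translation factors, has Mrpl10 and Mrpl11 at its base and copies of Mrpl12 as its mobile part. Mrpl10 had 57.7, 46.4 and 58.9 CPM, or 31.8 CPM per kb. Mrpl12 had 38.8, 22.4 and 21.3 CPM, or 17.95 CPM per kb, with replicate 1 above the other libraries. Mrpl11 had 10.9, 8.17 and 6.06 CPM, or 2.59 CPM per kb, and was called neither way. Per length, the libraries of Mrpl11 did not overlap those of Mrpl10 or of Mrpl12.

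At the exit of the tunnel through which the new protein leaves, 3 of 6 genes (50%) lay above 10 CPM, 2 below and 1 neither. All tested genes had 58.8% above and 28.3% below. Mrpl24, Mrpl44 and Mrpl45 were above, with 23.0 ± 2.13, 18.2 ± 2.52 and 9.51 ± 0.215 CPM per kb. Mrpl45, which faces the inner membrane, had 25.05, 24.96 and 24.0 CPM and was the steadiest of all 77 genes. Mrpl22 was called neither way at 10.02 ± 1.40 CPM per kb, and a near-identical copy of it, Gm6997, is annotated. Mrpl23 and Mrpl47 were below, at 0.888 and 0.773 CPM per kb, or 6.27 and 1.02 by the principal transcript.

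Of the 6 genes of the central protuberance, the crest of the large subunit that faces the small subunit, Mrpl18, Mrpl40 and Mrpl48 lay above 10 CPM. This was 50% of the 6, beside 58.8% of all tested genes. The levels per length of Mrpl18, Mrpl40 and Mrpl48 were 33.1 ± 3.66, 12.1 ± 3.52 and 2.83 ± 0.635 CPM per kb. Mrpl27 and Mrpl46 were called neither way at 8.52 ± 3.37 and 7.77 ± 1.70 CPM per kb, and Mrpl38 was below 10 CPM at 1.94 ± 0.575 CPM per kb. By the principal transcript the genes of the protuberance ran from 3.51 CPM per kb for Mrpl38 to 37.9 for Mrpl18. Those of the tunnel exit ran from 1.02 for Mrpl47 to 38.7 for Mrpl24. Genes for neighbouring proteins thus did not share a level by either length. All other listed genes also spread widely, with quartiles of 1.21 and 13.1 CPM per kb of merged exons. Whether neighbours differ more or less than other genes was not tested.

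The 3 paralogues of bacterial S18 take separate places in the ribosome. Mrps18a, placed in the large subunit by structures, had 22.3, 16.3 and 16.1 CPM and lay above 10 CPM (estimate 0.79 ± 0.19, SE, adjusted p = 0.000508 by limma). Mrps18b had 5.05, 4.73 and 9.12 CPM and lay below (adjusted p = 0.0235 by limma, 0.0584 by edgeR, 0.0665 by DESeq2). Mrps18c had 4.66, 10.4 and 4.76 CPM and lay below (adjusted p = 0.0338 by limma, 0.0952 by edgeR, 0.111 by DESeq2). The calls for Mrps18b and Mrps18c are thus lost in both count tests. Per length the 3 genes had 4.94 ± 0.959, 3.02 ± 1.17 and 6.15 ± 3.07 CPM per kb, with overlapping ranges. By the principal transcript they had 20.6 ± 4.005, 5.84 ± 2.27 and 10.4 ± 5.18 CPM per kb, and the libraries of Mrps18a then lay above those of both others.

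Of all tested genes 58.8% lay above 10 CPM. By ancestry, 19 of 30 Mrpl genes (63.3%) with a bacterial ribosomal counterpart and 14 of the 18 others (77.8%) did so. Their medians were 7.05 and 8.64 CPM per kb, but 12.5 and 11.3 by the principal transcript and 11.1 and 9.94 by the longest, so the order turns with the length used. For the Mrps genes, all 3 paralogues of S18 were counted as bacterial and Mrps36 was left out. Then 10 of 18 Mrps genes (55.6%) with a bacterial counterpart and 5 of 10 others (50%) lay above. Their medians were 5.32 and 2.23 CPM per kb, and 9.29 and 4.18 by the principal transcript. The difference by ancestry was not tested.

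Several proteins of the mitochondrial ribosome do not carry an Mrp name. Aurkaip1, a small-subunit protein, had 93.8, 95.7 and 76.9 CPM, or 50.3 ± 5.85 CPM per kb. Dap3, a GTP-binding small-subunit protein first described in cell death, had 38.3, 40.8 and 49.2 CPM, or 6.595 ± 0.880 CPM per kb. Ptcd3, a pentatricopeptide repeat protein of the small subunit, and Gadd45gip1, a large-subunit protein, averaged 15.0 ± 1.94 and 14.2 ± 2.64 CPM. These 4 lay above 10 CPM, as did 58.8% of all tested genes. Chchd1 had 25.2, 15.0 and 7.53 CPM, spread over both sides of the level, and was called neither way (adjusted p = 0.0702 by limma). Ict1, a peptidyl-tRNA hydrolase of the large subunit, is listed as Mrpl58, with 30.9, 23.5 and 21.4 CPM.

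The pathway around the ribosome was read from 3 further lists. Of 15 translation factors and regulators, 4 (26.7%) lay above 10 CPM, 6 below and 5 neither. All tested genes had 58.8% above and 28.3% below. Tufm, the elongation factor that brings aminoacyl-tRNA, was highest per length at 11.8 ± 2.99 CPM per kb, followed by Oxa1l, which inserts new proteins into the inner membrane, at 8.23 ± 1.15. Gfm1, the translocase, came next among those above at 5.07 ± 1.43 CPM per kb, and Taco1, an activator of the translation of a cytochrome oxidase subunit, lay below 10 CPM at 4.68 ± 1.596 CPM per kb. The lowest were Guf1 (0.778 CPM per kb), Mtfmt, which formylates the initiator tRNA (1.03), Mrrf, the recycling factor (1.13), and Gfm2 (1.22). Mtfmt and Mrrf lay below 10 CPM, and Guf1 and Gfm2 were called neither way.

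Of 23 listed assembly factors, 6 (26.1%) lay above 10 CPM, 11 below and 6 neither, where all tested genes had 58.8% above and 28.3% below. Rbfa, which binds the maturing small subunit, had 249, 226 and 187 CPM, or 149 ± 21.2 CPM per kb, and stood far above the rest of its list. Exons of Rbfa overlap those of an antisense gene, so this value is uncertain. The next highest were Mpv17l2 at 12.4 ± 3.05 CPM per kb, Eral1, a GTPase that binds the small ribosomal RNA, at 7.31 ± 1.38, and Ngrn at 7.10 ± 1.497. The lowest were Mettl17 at 0.167 CPM per kb, with 6, 33 and 0 reads, Gtpbp10 at 0.418, Fastkd2 at 0.438 and Nsun4 at 0.577, all below 10 CPM.

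Of 10 listed genes for mitochondrial transcription and its regulators, 4 (40%) lay above 10 CPM and 2 below. All tested genes had 58.8% above and 28.3% below. The 4 above were the nuclear regulators Esrra (10.8 ± 1.74 CPM per kb), Gabpa (7.61 ± 0.930), Gabpb1 (5.49 ± 0.459) and Nrf1 (5.44 ± 0.408). Gabpa and Gabpb1 form a factor of the ETS family, and this factor and Nrf1 are known to act at many nuclear genes for mitochondrial proteins. Of the factors that act inside the organelle, Tfb2m and Tefm were below 10 CPM, at 0.952 ± 0.382 and 1.78 ± 0.178 CPM per kb. Polrmt, the mitochondrial RNA polymerase, had 9.51, 8.47 and 7.07 CPM and was called neither way. Ppargc1b had 0, 7 and 0 reads and was not tested.

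**Figure D3:**
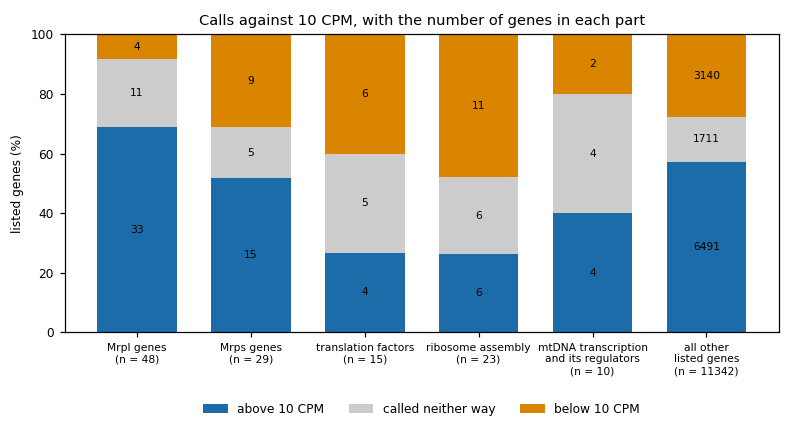
Percentage of listed genes above 10 CPM, called neither way and below 10 CPM by limma, for Mrpl genes, Mrps genes, the lists of translation factors, ribosome assembly factors and transcription genes, and all other listed genes; numbers in the bars count genes, and genes not tested stand with those called neither way. Of Mrpl genes 33 (68.8%) and of Mrps genes 15 (51.7%) lie above. Of translation factors 4 (26.7%), of assembly factors 6 (26.1%) and of transcription genes 4 (40%) do, beside 6491 (57.2%) of the other listed genes. The calls are on CPM and not per length.

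The libraries differed in the same direction for most of the mitochondrial ribosomal protein genes. Replicate 1 was the highest library for 46 of the 77 genes, replicate 2 for 18 and replicate 3 for 13, while 31.9% of the other listed genes were highest in replicate 1. Replicate 3 was the lowest library for 46 of the 77 genes, or 59.7%, against 25.7% of the other listed genes. The median log2 ratio of CPM + 1 between replicates 3 and 1 was -0.45 for these genes and 0.14 for the other listed genes. For Mrpl and Mrps genes it was -0.48 and -0.44. The nuclear respiratory chain genes had a median of -0.45 and the cytosolic ribosomal protein genes -0.59, the same sign as in Mrpl and Mrps genes.

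Among other listed genes, length moved with this shift. Their median log2 ratio of replicates 3 and 1 was -0.30 where the coding length was up to 450 bases, -0.06 between 451 and 750, 0.07 between 751 and 1500 and 0.30 over 1500. In the first 3 of these classes the mitochondrial ribosomal protein genes had medians of -0.58 over 23 genes, -0.45 over 27 and -0.19 over 27, and none was longer. By the length of the principal transcript they showed no such order. Their medians were -0.46 over 24 genes up to 1000 bases, -0.30 over 28 between 1001 and 2000, -0.60 over 8 between 2001 and 3000 and -0.46 over 17 above 3000. The other genes had -0.39, -0.11, 0.09 and 0.32 in these classes. Above 3000 bases the median of the 17 genes lay below 0 and that of the other genes above 0. Single genes fell on both sides, with 82.4% of the 17 and 25.5% of the other genes below 0. The 7 erythroid markers moved the same way, with 1002, 554 and 531 CPM in all, while the 12 proliferation genes summed to 2355, 2497 and 2760 CPM. None of the 19 stood at 0 in any library. The part of length or of these cells in the shift was not tested.

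**Figure D4:**
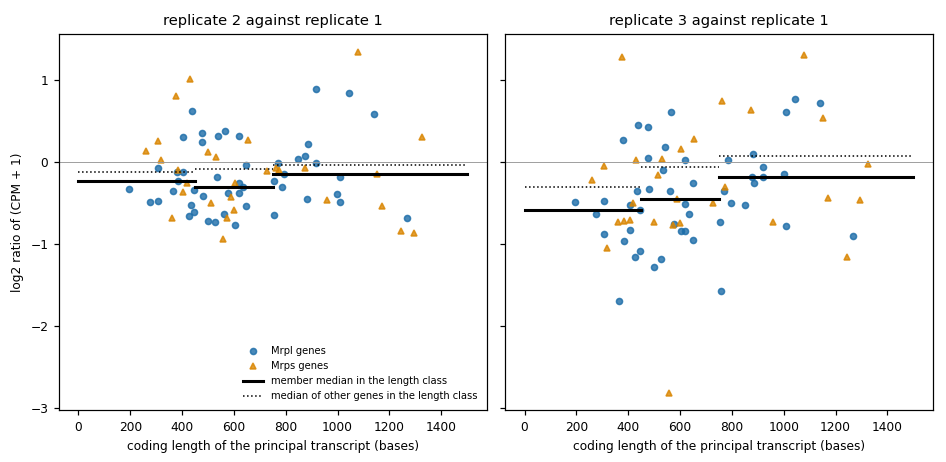
Log2 ratio of CPM + 1 between replicates 2 and 1 (left) and replicates 3 and 1 (right) of each Mrpl and Mrps gene, against the coding length of its principal transcript in bases. Solid lines are medians of these genes in each length class and dotted lines those of other genes. On the right the solid lines lie at -0.58, -0.45 and -0.19, under the dotted lines at -0.30, -0.06 and 0.07.

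The spread between libraries was read as the coefficient of variation (CV) of CPM over libraries. Of the 54 genes that averaged 10 CPM or more, 52 (96.3%) had a CV above that of counting error, as did 94.6% of the other listed genes at that level, so this share is near the background. Their median CV was 21.2%, where counting error alone gives 6.49%, and the other listed genes at that level had 15.6%. The median ratio of the highest to the lowest library was 1.48 for these 54 genes and 1.35 for the others. The biological CV that edgeR estimated was 0.224 and 0.189.

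Among these 54, the largest ratios of highest to lowest library belonged to 8 Mrpl genes. Mrpl49 had 30.9, 18.4 and 12.2 CPM, a ratio of 2.53. Mrpl17 had 34.8, 20.5 and 14.8 CPM, a ratio of 2.35, and Mrpl42, Mrpl37, Mrpl51 and Mrpl21 had the same order of libraries. Mrpl54 and Mrpl2 differed, with replicate 2 highest at 21.1 and 25.3 CPM. Mrpl2, a protein of the large subunit core, had 13.2 and 11.5 CPM in replicates 1 and 3. The smallest ratios belonged to Mrpl45 (1.04), Mrps23 (1.05), Mrpl13 (1.14), Mrpl24 (1.19) and Mrpl19 (1.205). Mrps23, with 30.3, 31.7 and 31.1 CPM, and Mrpl45 were the 2 genes whose CV, 2.28% and 2.26%, did not exceed counting error.

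**Figure D5:**
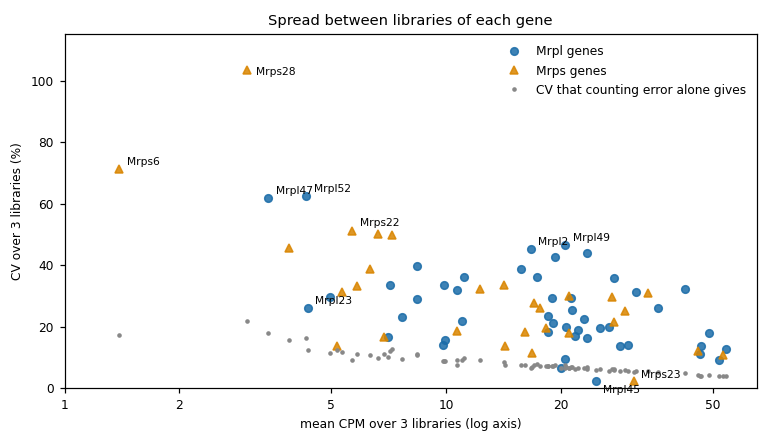
CV over the 3 libraries (%) against mean CPM (log axis) for Mrpl and Mrps genes, with grey points for the CV that counting error alone gives at the same gene. Mrps28 stands highest at 103%, the low genes Mrps6, Mrpl52 and Mrpl47 follow at 71.1%, 62.4% and 61.7%, and Mrpl45 and Mrps23 lie at 2.26% and 2.28% under their counting error.

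The gene starts share features that the names did not choose. A coding gene on the opposite strand starts within 1000 bases of 33 of the 77 genes, or 42.9%, against 17.5% of 10767 listed coding genes. Mrpl46 and Mrps11 start 412 bases apart and so are partners of each other, with 12.2, 12.5 and 8.22 CPM for Mrpl46 beside 19.6, 11.8 and 11.1 CPM for Mrps11. Mrpl36 and Ndufs6, a respiratory chain gene, start 29 bases apart, and Mrpl47 and Ndufb5, another, 615 bases apart. Mrps12 lies beside Sars2, the mitochondrial seryl-tRNA synthetase, and Mrpl43 beside Twnk, the mitochondrial DNA helicase, at 172 and 779 bases. Some partners differed in CPM: Mrpl43 averaged 46.7 ± 6.45 CPM and Twnk 3.66 ± 0.379 CPM. Mrpl47 averaged 3.42 ± 2.11 CPM and Ndufb5 30.3 ± 6.82 CPM. Others were closer, as the libraries of Mrpl46 and Mrps11 overlapped. These pairs were picked after their values were seen, and the values are not per length. Exons of Mrpl43 overlap those of Twnk, and exons of Mrpl47 those of Ndufb5. Whether partners differ in level more than other genes was not tested. The 33 genes with such a partner had a median of 7.78 CPM per kb and the 44 without 4.87, or 11.6 and 7.06 by the principal transcript.

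Promoter windows of 250 bases before to 50 after the gene start, from RefSeq (build GRCm38.p6), were found for 68 of the 77 genes. They were searched on both strands for the core of the Nrf1 motif (GCATGCGC), the ETS motif (CCGGAAG) and the YY1 motif (AAGATGGC), none of which contains another, though an ETS match and a YY1 match can share the letters AAG. The Nrf1 core occurred in the windows of 11.8% of these 68 genes, 6.27% of 8676 other listed genes and 3.05% of all 27025 genes with a window. The ETS motif occurred in 36.8%, 21.7% and 9.93%. The YY1 motif occurred in 17.6%, 5.72% and 3.19%. At least 1 of the 3 occurred in 54.4% of the 68 genes, 30.5% of the other listed genes and 14.9% of all genes. GGGCGG, the core of the Sp1 motif, was found in 50% of the 68 genes and 69.2% of other listed genes, CCAAT in 38.2% and 43.4%, and TATAAA in 7.35% and 8.47%. A gene was counted if any of its windows matched. The 68 genes had 74 windows, the 8676 other listed genes 11076 and all 27025 genes 32851. The median share of G and C in the windows was 58.5%, 60.7% and 52.7%. These differences were not adjusted for.

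The windows from 100 bases before to 20 after the start are given for 5 of the 8 genes that hold 2 or more matches to the first 3 motifs there. The 5 were picked by hand, after the matches were known, to show each motif and both strands. Mrps18a (chr17:46110904-46111023, plus strand), Mrpl43 (chr19:45006423-45006542, minus strand), Mrpl22 (chr11:58171564-58171683, plus strand), Mrpl52 (chr14:54426809-54426928, plus strand) and Mrpl32 (chr13:14613018-14613137, minus strand) are each written 5′ to 3′ on the strand of the gene. Capitals mark the matches, on either strand, to the Nrf1, ETS and YY1 motifs.
Mrps18a: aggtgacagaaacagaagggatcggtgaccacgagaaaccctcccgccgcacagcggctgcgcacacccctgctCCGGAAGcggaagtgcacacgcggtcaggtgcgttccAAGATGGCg
Mrpl43: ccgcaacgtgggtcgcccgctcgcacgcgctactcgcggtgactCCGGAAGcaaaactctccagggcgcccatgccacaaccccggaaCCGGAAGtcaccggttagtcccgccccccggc
Mrpl22: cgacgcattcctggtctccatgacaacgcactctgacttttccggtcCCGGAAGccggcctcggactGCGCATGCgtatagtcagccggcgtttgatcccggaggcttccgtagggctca
Mrpl52: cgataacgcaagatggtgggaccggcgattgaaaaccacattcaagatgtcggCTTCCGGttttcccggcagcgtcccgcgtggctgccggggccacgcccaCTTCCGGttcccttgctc
Mrpl32: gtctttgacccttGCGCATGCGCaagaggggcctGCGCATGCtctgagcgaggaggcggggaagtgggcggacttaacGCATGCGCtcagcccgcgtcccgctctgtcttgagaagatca

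Mrps18a holds an ETS match 26 bases before the start and a YY1 match 12 after it. Mrpl43 holds 2 ETS matches, 56 and 12 bases before the start. Mrpl22 holds an ETS match and, on the other strand, an Nrf1 core. Both ETS matches of Mrpl52 read on the other strand. The 4 Nrf1 cores of Mrpl32 include 2 that overlap on opposite strands. Per length these genes had 4.94 CPM per kb for Mrps18a, 30.7 for Mrpl43, 10.02 for Mrpl22, 3.87 for Mrpl52 and 3.71 for Mrpl32. As they were picked by hand, nothing about motifs and level is read from these values. A match describes the letters of the window and not the binding of a factor.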

How the data were processed

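Messenger RNA was measured in 3 libraries of 1 group, taken as replicates 1, 2 and 3 from the labels. The deposited values were CPM per gene. Per the submitters' processing notes, the authors used STAR, featureCounts, edgeR and FastQC, and the genome builds mm10 and GRCh38. Versions, the role of each build, annotation, strand setting and gene filter are not given in the sources used here. Each file repeated 44 genes, which were kept once. All values (100%) were whole multiples of 1 read within 0.01 reads. A count of 0 allows 3 reads, or 0.583, 0.0747 and 0.0798 CPM, for counting error only.

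With 1 group, each gene was compared with 10 CPM: limma 3.58.1 (R 4.3.3) fitted an intercept to log2(CPM + 1), pseudocount 1, against the same transform of 10 CPM, two-sided, with trended moderation. Estimates on that scale understate low genes. The 11123 genes with at least 10 recovered reads entered, p-values were adjusted by Benjamini-Hochberg over all of them, and calls needed an adjusted p under 0.05. Without adjustment, 6562 genes lay above and 3173 below. The p-values measure the spread between libraries, which may be technical. The fit was also run on simulated reads with known changes, and that outcome is not given here. Counts recovered as whole reads went to edgeR 4.0.16 and DESeq2 1.42.0 as alternatives, and edgeR called 6658 genes above and 2786 below. Lengths came from GENCODE M21 (GRCm38), which covered 99.9% of genes. Overlaps were found with bedtools 2.31.1 and near-identical copies (at least 95% identity over at least 50% of the transcript) with BLAST 2.17.0.

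Genes were named by rule: in each subunit the 8 highest and 5 lowest per kb, all not above 10 CPM, the 8 largest and 5 smallest ratios of libraries at a mean of 10 CPM or more, all of the structural lists and of the subunits with other names, and up to 4 highest and 4 lowest of each pathway list. Mrpl33, genes named for a lost call and those named for a start partner or a promoter were chosen after their values were seen, as were the principal transcript and the grouping by ancestry that moves the S18 paralogues. The genes and lists were chosen with earlier results of these data known. Other alternatives were other pseudocounts, filters, levels, scalings, transcript lengths and leaving out each library.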

Additional observations from a re-analysis of the deposited data

How the results depend on the processing

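Of the 77 genes, 51 kept their call under all 11 alternatives run per gene, 26 changed under at least 1, and none of the called genes reversed. The number above was 18 (23.4%, against 44.3% of all tested genes) when the level was 20 CPM, and 60 (77.9%, against 69.3%) at 5 CPM. When a library was left out it lay between 35 and 47 (45.5% to 61%, against 52.9% to 58.8% of all tested genes). The number below was 2 at 5 CPM (2.6%, against 16.8% of all tested genes). At 20 CPM it was 30 (39%, against 42.2%), near the background. With a library left out it lay between 6 and 12 (7.79% to 15.6%, against 21.8% to 28% of all tested genes). Over all tested genes, 1870 lay below 5 CPM. By edgeR 49 genes lay above and 10 below (63.6% and 13%, against 59.9% and 25% of all tested genes). By DESeq2 they were 48 and 11 (62.3% and 14.3%, against 59% and 26.4%). The Mrpl and Mrps medians were 10.8 and 6.35 CPM per kb by the longest transcript, and 11.5 and 6.70 by the principal transcript, which was added after the data were seen. The per-length order of single genes changed with these lengths. With neutrophil markers left out of the total, the shares were 0.129% and 0.0611%. The median ratio of highest to lowest library was 1.59 with TMM scaling, 1.61 with DESeq2 size factors and between 1.23 and 1.44 with a library left out. The new totals, lengths or numbers of libraries enter these values by construction. Without a filter on low values, 8 calls were lost, among them Mrpl2, Mrpl37, Mrpl42, Mrpl49 and Mrpl54. Replicate 1 had 51.5 reads at 10 CPM, which limits the precision of low genes. No paired analysis was possible because there is 1 group.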
